A study of Homo sapiens with 15 samples.

Results

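Expression was followed for 10 genes that specify or mark the melanocyte and neural crest lineages: SOX10, SOX9, MITF, PAX3, TFAP2A, TFAP2B, FOXD3, NGFR, RXRG and LEF1. They were chosen by symbol, with earlier results of these data known, and make up 10 of the 15703 symbols listed for all 15 libraries. Their counts set beside those of all genes are therefore descriptive. The cells were A375, an established human melanoma line with mutant BRAF, in 5 groups of 3 libraries. In 1 experiment A375 carried an empty vector and were given vehicle, or overexpressed VAV1 with either vehicle or saracatinib, which blocks kinases of the SRC family. In the other, untreated A375 carried an empty vector or RAC1 P29S. The VAV1 protein is an exchange factor that loads RAC1 and related GTPases with GTP, and RAC1 P29S is an activated form of RAC1 found in melanoma. The labels give no dose, no time and no promoter for the transgenes, do not say whether a line is 1 clone, and hold no empty-vector group with saracatinib. The series is titled as a study of resistance to MAPK inhibition, but no label of these 15 samples names a MAPK inhibitor.

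Melanocytes arise from the neural crest, whose precursors are specified by factors of the SOX, PAX, AP-2 and FOXD families. In the melanocyte lineage SOX10 and PAX3 switch on MITF, which in turn drives pigment genes, and LEF1, the nuclear partner of beta-catenin, acts on the same MITF promoter. SOX9 is a close relative of SOX10 that directs cartilage and other fates, and melanoma cells that lose the melanocytic state often carry less SOX10 and more SOX9.

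The transgenes went with the sample titles. The log2 value of VAV1 was 2.22 ± 0.30 (SD, n = 3) with the empty vector, 13.91 ± 0.04 with VAV1 and vehicle and 14.12 ± 0.03 with saracatinib, and RAC1 at 11.88 ± 0.02 and 14.93 ± 0.04 in untreated empty-vector and RAC1 P29S cells. For the RAC1 P29S samples the genotype entry says empty vector, and the groups follow the titles. Values are log2 of a normalized count plus 1, and each library summed to 14443918 to 16262759 normalized counts. How many reads this rests on is not given. The pigment cell markers that define differentiated melanocytes were near the floor: MLANA, PMEL and TYRP1 together summed to 19.0 to 39.1 normalized counts in empty-vector cells with vehicle, and with TYR and DCT to 39.3 to 86.3 in untreated ones. The sums were also low with the transgenes, at 28.9 to 41.2 with VAV1 and vehicle, 19.9 to 37.5 with saracatinib and 32.4 to 52.5 with RAC1 P29S. TYR and DCT are not among the symbols listed for the vehicle and saracatinib libraries, so they could not be analysed there. The same holds for the markers of other cell types left out of the counts below. Summed markers of other cell types lay at 617.0 to 845.6 (keratinocyte, 3 of 8 analysed), 85.2 to 258.0 (fibroblast, 5 or 6 of 7) and 42.3 to 116.1 (endothelial, 4 or 5 of 5) over the 15 libraries. Single members moved within these sums. KRT14 averaged log2 values of 7.17 with the empty vector and vehicle and 5.89 with VAV1 and vehicle, beside 9.15 and 9.235 for KRT10. FAP averaged 0.36 and 4.19 in these groups and 5.24 with saracatinib, and COL1A1 averaged 5.85, 6.21 and 4.52. The part of these markers in the results was not tested. Haematopoietic markers (4 or 5 of 7 analysed) moved with the groups, at 705.5 to 755.3 with the empty vector, 1172.4 to 1223.9 with VAV1 and 2450.9 to 2685.9 with saracatinib, and at 405.5 to 482.3 and 937.6 to 1039.2 in untreated empty-vector and RAC1 P29S cells. In that list the lysosomal CD68 averaged log2 values of 8.94, 10.15 and 11.26 in the first 3 of these groups and 8.40 and 9.85 in the untreated ones. The lysozyme gene LYZ went the other way with the transgenes, at 7.90, 5.79 and 6.48 and at 6.73 and 5.85. The defining leukocyte gene PTPRC averaged between 2.32 and 2.74 over the 5 groups and the monocyte gene CD14 between 0.89 and 2.76. These are bulk cultures, in which fewer cells expressing a gene and less RNA of it per cell cannot be told apart.

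Sequence upstream of MITF and FOXD3 is shown because MITF is the gene on which several of the factors act, and FOXD3 is the factor that came back nearest to its control level with saracatinib. RefSeq (GRCh38.p14) gave promoters for 7 of the 10 genes. The MITF stretch, chr3:69936342-69936541 on the plus strand, covers bases 250 to 51 before a RefSeq start of MITF at position 69936592. That position is also the start of transcript MITF-206 in GENCODE. RefSeq also gave MITF starts at 69739464 and 69763811, whose upstream sequence is not printed. The annotation (release 29, GRCh38) places the stretch in introns of 9 longer MITF transcripts and 0 of its bases in an MITF exon. The FOXD3 stretch, chr1:63322417-63322536 on the plus strand, covers bases 150 to 31 before the RefSeq start, which lies 474 bases before the GENCODE start of FOXD3. Exons of the antisense gene FOXD3-AS1 cover 142 of the 250 bases before that start. Capitals mark matches to the motifs searched on both strands, none of which overlap each other here.
MITF: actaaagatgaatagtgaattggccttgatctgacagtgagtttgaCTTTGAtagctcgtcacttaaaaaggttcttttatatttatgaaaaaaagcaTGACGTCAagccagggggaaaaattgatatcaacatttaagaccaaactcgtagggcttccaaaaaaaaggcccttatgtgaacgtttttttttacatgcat
FOXD3: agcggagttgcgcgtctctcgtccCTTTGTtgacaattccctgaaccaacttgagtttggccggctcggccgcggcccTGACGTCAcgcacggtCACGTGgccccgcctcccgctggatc

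The MITF stretch holds the TCF and LEF letters CTTTGA, 204 to 199 bases before the start, and the cyclic AMP response element TGACGTCA at 152 to 145. The FOXD3 stretch holds CTTTGT at 126 to 121, which reads as the SOX letters ACAAAG on the other strand, the same TGACGTCA at 72 to 65, and the E-box CACGTG, letters that MITF and other bHLH factors recognise, at 56 to 51. Among 35116 RefSeq promoters, cut to the 250 bases before the start, 11.2% hold CTTTGA, 13.7% ACAAAG, 1.65% TGACGTCA and 6.34% CACGTG. The letters ACAATG (9.29% of promoters), CATGTG (9.42%), GCCNNNGGC (19.8%) and AGGTCA (12.1%) were also searched and are not in either stretch. In the unprinted MITF promoters, ACAATG lies in the 250 bases before 69739464. ACAAAG and AGGTCA, both on the other strand, lie in the 250 bases before 69763811. A match is a description of the letters and not evidence of binding. The deposited values are per symbol, so they do not tell which of the 15 annotated transcript starts of MITF was used.

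With vehicle, VAV1 cells were compared with empty-vector cells to see how the lineage factors responded. The factors did not move together. SOX10 fell while SOX9 and MITF rose, TFAP2B, RXRG, FOXD3 and LEF1 fell, TFAP2A rose, and PAX3 and NGFR did not pass the test. In limma 8 of the 10 genes had an adjusted p under 0.05, of which 3 were higher and 5 lower, where 43.7% of the 14410 genes tested passed in either direction, 23.6% higher and 20.1% lower. The median log2 difference was -0.66 over the 10 genes and 0.02 over all tested genes. All 10 passed the filter on low values in both experiments. In the untreated experiment SOX9 passed it only through its RAC1 P29S libraries, at 98.0 to 119.2 normalized counts, beside 2.7 to 9.4 in the control.

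**Figure D1:**
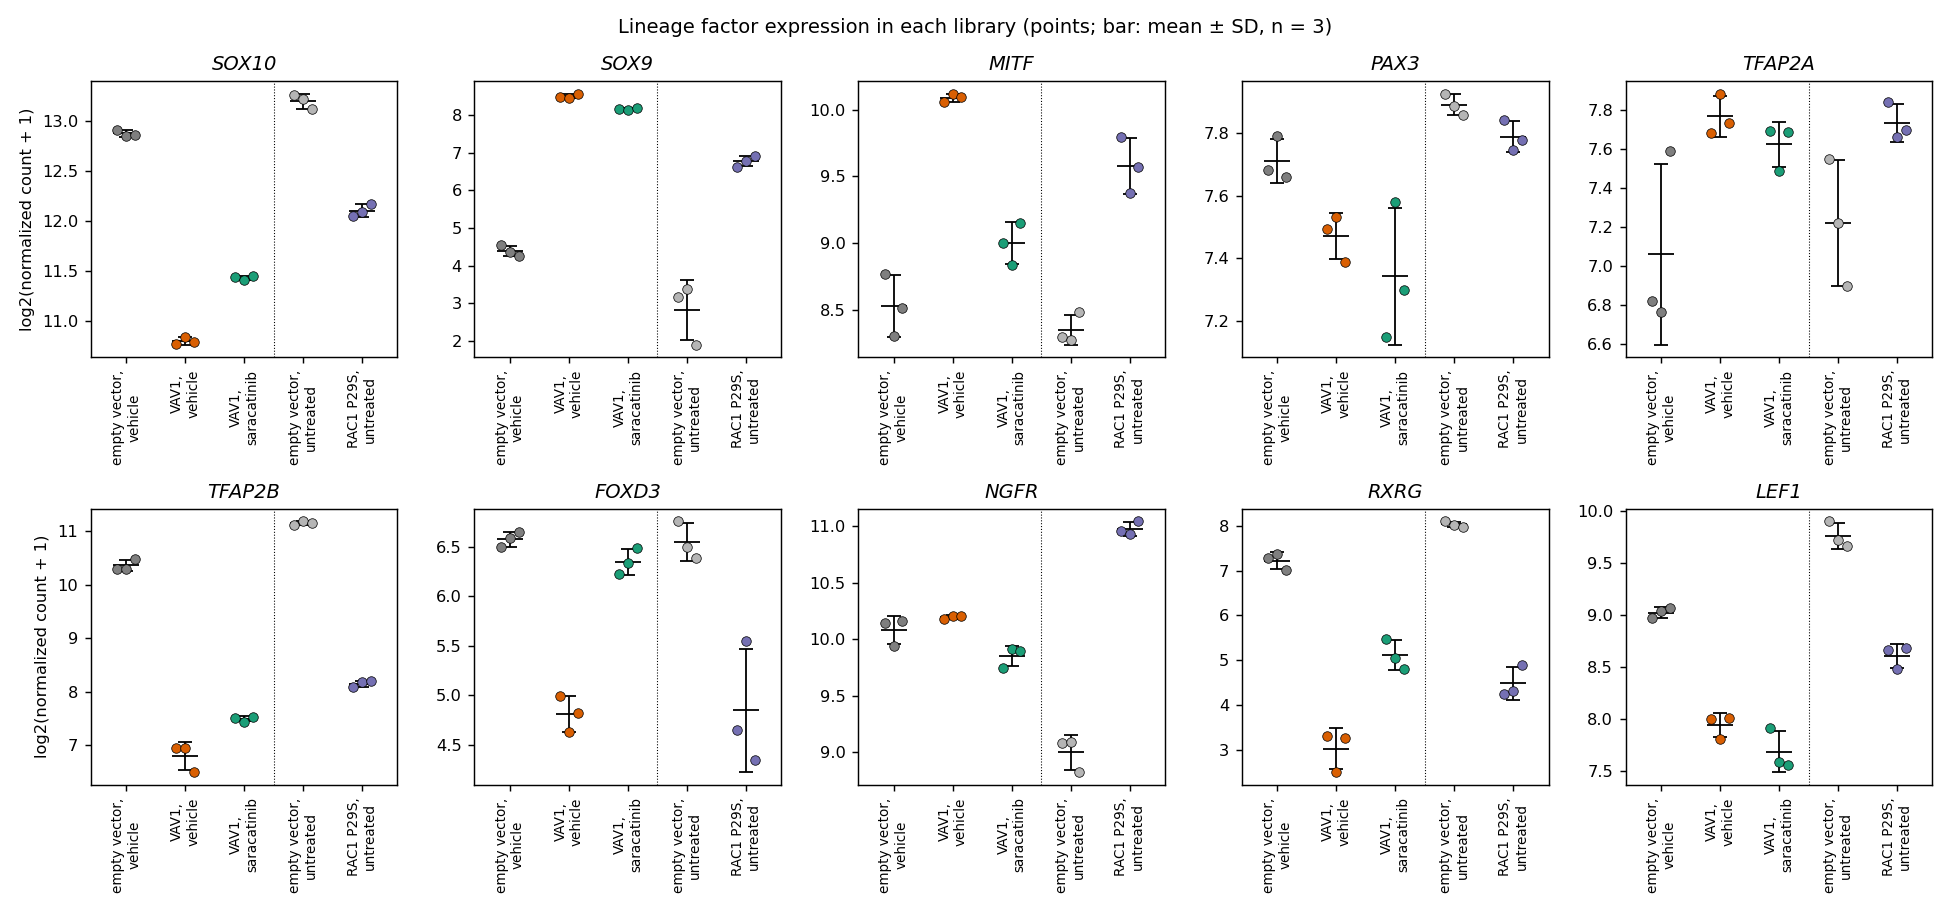
Log2(normalized count + 1) of each of the 10 genes (vertical axes, which differ in range and do not start at 0) in each library (points) of the 5 groups, with the mean and SD of 3 libraries as bars. The dotted line parts the vehicle and saracatinib libraries from the untreated ones, which the authors scaled separately. SOX10 lies lowest and SOX9 and MITF highest with VAV1 and vehicle, and NGFR is highest with RAC1 P29S.

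SOX10 (chromosome 22, 37970686 to 37987422, GRCh38), the transcription factor that maintains the melanocyte and Schwann cell lineages, lay at log2 values of 12.92, 12.85 and 12.86 with the empty vector and at 10.77, 10.84 and 10.80 with VAV1. The groups were far apart beside the spread within each, and the difference was -2.07 ± 0.04 (SE, 4.21-fold, limma adjusted p = 4.73e-13). SOX9 (chromosome 17, 72121020 to 72126420) lay at 4.54, 4.37 and 4.26 with the empty vector, that is 18.2 to 22.3 normalized counts, and at 8.48, 8.46 and 8.57 with VAV1, or 351.6 to 379.2. It rose by 4.11 ± 0.13 (17.3-fold, limma adjusted p = 2.03e-11), or by 3.39 with 16 in place of 1 added before the log. MITF (chromosome 3, 69739435 to 69968337), the regulator of melanocyte survival and pigmentation, lay at 8.77, 8.30 and 8.51 with the empty vector and at 10.06, 10.12 and 10.10 with VAV1. It rose by 1.57 ± 0.11 (2.96-fold, limma adjusted p = 1.11e-07), so that MITF was higher in the same libraries in which SOX10 was lower. POLR2F, which is annotated on the other strand over 89 of the 3710 exonic bases of SOX10, differed by -0.01 ± 0.06 (limma adjusted p = 0.920). TFAP2A, FOXD3, NGFR and LEF1 share exonic bases with antisense or other genes on the other strand, and the sources used here do not say that counting used strand.

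Among the other neural crest factors, the largest decreases were those of RXRG and TFAP2B. RXRG (chromosome 1, 165400917 to 165445355), the retinoid X receptor gamma, which marks a neural crest stem-like state of melanoma, lay at 7.29, 7.37 and 7.02 with the empty vector and at 3.30, 2.49 and 3.27 with VAV1. With VAV1 only 4.6 to 8.8 normalized counts were left, and the difference was -4.20 ± 0.28 (18.4-fold, limma adjusted p = 4.91e-08). A low count makes this value depend on the amount added before the log, and with 16 in place of 1 it was -2.82. TFAP2B (chromosome 6, 50818723 to 50847613), an AP-2 factor of neural crest, kidney and melanocyte stem cells, lay at 10.30, 10.30 and 10.49 with the empty vector and at 6.95, 6.95 and 6.50 with VAV1. It changed by -3.56 ± 0.12 (11.8-fold, limma adjusted p = 6.24e-11). Its paralogue TFAP2A (chromosome 6, 10393186 to 10419659), which works with MITF at pigment genes, went the other way, from 6.82, 6.77 and 7.59 to 7.68, 7.88 and 7.73. The highest empty-vector library came close to the lowest VAV1 library, and the rise was 0.71 ± 0.19 (1.63-fold, limma adjusted p = 0.00792).

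FOXD3 (chromosome 1, 63323041 to 63325126), a neural crest specifier that represses MITF in the embryo, lay at 6.50, 6.59 and 6.65 with the empty vector and at 4.99, 4.63 and 4.82 with VAV1. The difference was -1.77 ± 0.18 (3.4-fold, limma adjusted p = 3.66e-06). LEF1 (chromosome 4, 108047545 to 108168956) ranged from 8.97 to 9.06 with the empty vector and from 7.81 to 8.02 with VAV1, a change of -1.08 ± 0.11 (2.12-fold, limma adjusted p = 3.91e-06). PAX3 (chromosome 2, 222199888 to 222298996), which acts with SOX10 on MITF, ranged from 7.66 to 7.79 and from 7.39 to 7.53. Its libraries did not overlap, yet the difference of -0.24 ± 0.13 (95% interval -0.51 to 0.04, limma adjusted p = 0.147) did not pass. NGFR (chromosome 17, 49495293 to 49515017), the low-affinity nerve growth factor receptor CD271 and a surface marker of neural crest-like melanoma cells, ranged from 9.94 to 10.16 and from 10.18 to 10.21. Its difference was 0.12 ± 0.07 (95% interval -0.04 to 0.27, limma adjusted p = 0.216).

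The next comparison asks how RAC1 P29S compares with its own empty-vector control. Here 9 of the 10 genes passed, 4 higher and 5 lower, where 31.1% of 14036 tested genes passed in either direction, 15.6% higher and 15.5% lower. SOX10, TFAP2B, FOXD3, RXRG and LEF1 fell, and SOX9, MITF, TFAP2A and NGFR rose. Of these, SOX9 entered the test only through its RAC1 P29S libraries, so the filter favoured its call. PAX3, at 7.86 to 7.93 in the control and 7.75 to 7.84 with RAC1 P29S, differed by -0.10 ± 0.10 (95% interval -0.32 to 0.12, limma adjusted p = 0.481). The median log2 difference over the 10 genes was -0.60, beside a median between -0.01 and 0.02 over all tested genes in each of the 4 comparisons of 2 groups.

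SOX10 lay at 13.26, 13.22 and 13.12 in untreated empty-vector cells and at 12.05, 12.09 and 12.17 with RAC1 P29S, a change of -1.10 ± 0.05 (2.14-fold, limma adjusted p = 1.42e-07). SOX9 lay at 3.17, 3.39 and 1.91 in the control, or 2.7 to 9.4 normalized counts, and at 6.63, 6.78 and 6.91 with RAC1 P29S, or 98.0 to 119.2. It rose by 3.96 ± 0.38 (15.5-fold, limma adjusted p = 2.45e-05). With so few control counts the size depends on the amount added before the log, and the rise was 3.45 with 4 added and 2.47 with 16. The third control library had the lowest count and stood apart from the other two. MITF lay at 8.30, 8.27 and 8.48 in the control and at 9.79, 9.38 and 9.57 with RAC1 P29S, a rise of 1.23 ± 0.11 (2.34-fold, limma adjusted p = 1.86e-05). In each of these 3 genes the libraries of the groups were apart.

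TFAP2B lay at 11.12, 11.18 and 11.15 in the control and at 8.08, 8.17 and 8.19 with RAC1 P29S, a change of -2.9996 ± 0.07 (8.0-fold, limma adjusted p = 1.37e-09). RXRG lay at 8.10, 8.02 and 7.98 and at 4.24, 4.30 and 4.90, a change of -3.55 ± 0.20 (11.7-fold, limma adjusted p = 5.97e-07), or -2.89 with 16 added before the log. FOXD3 lay at 6.76, 6.49 and 6.38 and at 4.65, 5.55 and 4.34, and its 3 RAC1 P29S libraries spread more widely than its controls. It changed by -1.70 ± 0.30 (3.24-fold, limma adjusted p = 0.00162), and LEF1 by -1.15 ± 0.09 (2.22-fold, limma adjusted p = 6.50e-06), from 9.66 to 9.90 in the control to 8.48 to 8.68. TFAP2A, at 6.90 to 7.55 and 7.66 to 7.84, rose by 0.51 ± 0.16 (limma adjusted p = 0.0373). That call was lost without control library 2 (adjusted p = 0.0798) or 3 (0.102) and without RAC1 P29S library 1 (0.116), 2 (0.0653) or 3 (0.0819), so its change is less certain than those of the other genes.

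NGFR was the gene for which VAV1 and RAC1 P29S differed most. It lay at 9.08, 9.09 and 8.82 in untreated empty-vector cells and at 10.96, 10.93 and 11.04 with RAC1 P29S, a rise of 1.98 ± 0.08 (3.95-fold, limma adjusted p = 5.37e-08), against 0.12 ± 0.07 with VAV1. The VAV1 effect minus the RAC1 P29S effect was -1.86 ± 0.11 (limma adjusted p = 9.04e-09). The control levels of the 2 experiments were 10.08 ± 0.13 (SD, n = 3) with vehicle and 8.996 ± 0.15 untreated. These were scaled separately, so that difference was not tested. As deposited, the RAC1 P29S libraries lay above every VAV1 and control library of either experiment, but levels of the 2 experiments are not on a shared scale.

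The test of the difference of effects, which holds each transgene against its own control, passed for 3 of the 10 genes, all with lower values for VAV1, where 15.8% of 13810 genes passed in either direction, 8.14% higher and 7.7% lower. Besides NGFR these were SOX10, with -0.98 ± 0.06 (95% interval -1.11 to -0.84, limma adjusted p = 2.20e-08), and TFAP2B, with -0.56 ± 0.15 (limma adjusted p = 0.0141). Both genes fell with either transgene, and more with VAV1. The remaining 7 genes were not separated by this test. The difference was 0.16 ± 0.38 for SOX9 (95% interval -0.64 to 0.96, limma adjusted p = 0.829), 0.34 ± 0.17 for MITF (-0.02 to 0.69, adjusted p = 0.195) and -0.65 ± 0.36 for RXRG (-1.40 to 0.10, adjusted p = 0.240). For PAX3, TFAP2A, FOXD3 and LEF1 it lay between -0.14 and 0.19. The SOX9 value moved with 1 library and with the amount added before the log. Without the third untreated control library it was 0.61 ± 0.21 (limma adjusted p = 0.0634), and with 16 added it was 0.93 (adjusted p = 0.00215). Transgene and treatment history cannot be told apart here, since the VAV1 cells had vehicle and the RAC1 P29S cells had none.

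**Figure D2:**
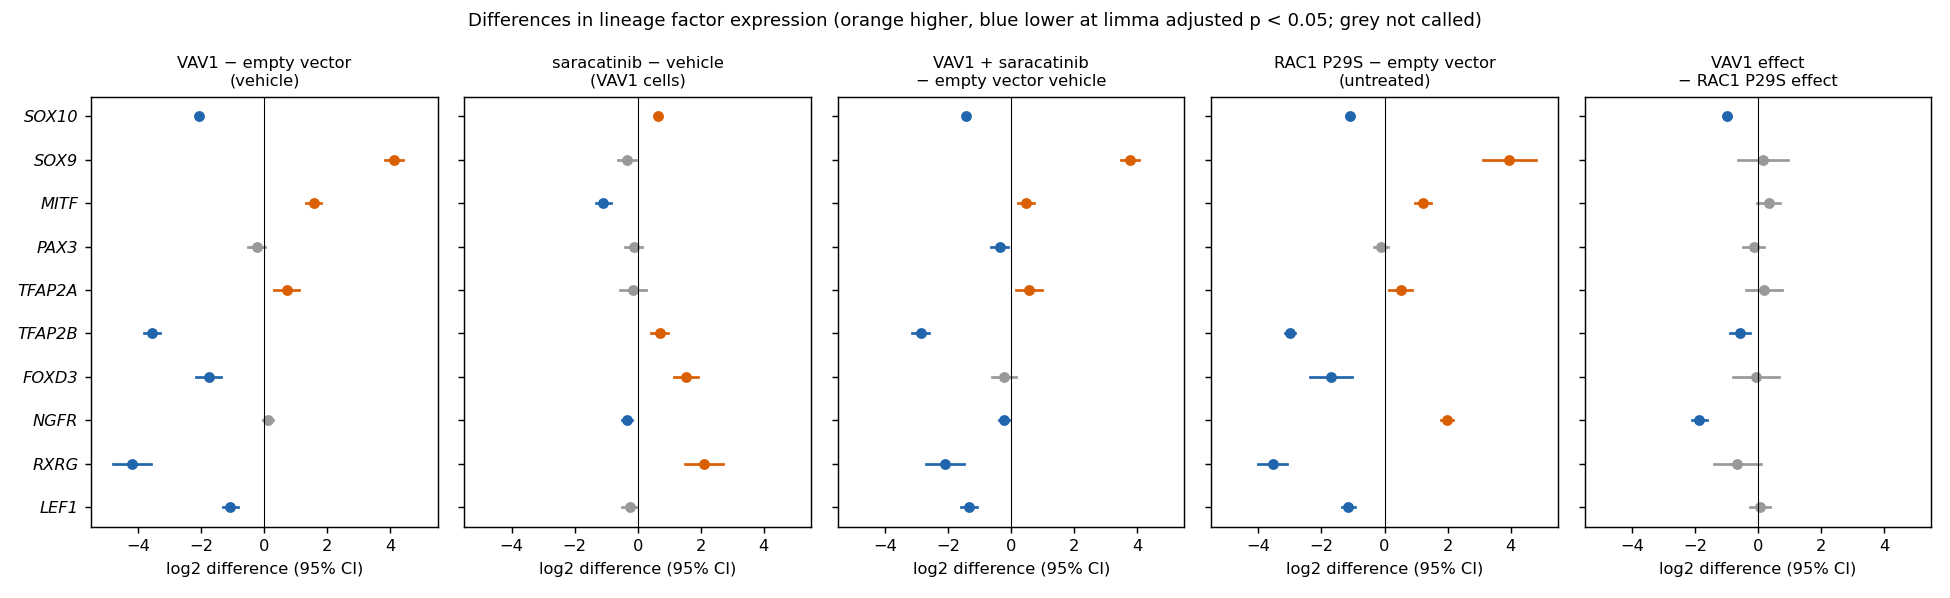
Log2 difference (horizontal axis) with its 95% interval for each of the 10 genes in the 5 comparisons, from limma. Orange and blue mark genes higher or lower at an adjusted p under 0.05, grey those that did not pass. SOX10, TFAP2B, FOXD3, RXRG and LEF1 are lower and SOX9, MITF and TFAP2A higher in both the VAV1 and RAC1 P29S panels. How many of all genes were called alike in both was not counted. The panel of the difference of effects shows the 3 genes whose effects differed.

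The third comparison asks what saracatinib did to the lineage factors in VAV1 cells. SOX10, TFAP2B, FOXD3 and RXRG rose and MITF and NGFR fell. In all 6 of the 10 genes passed, 4 higher and 2 lower, where 37.3% of tested genes passed in either direction, 18.3% higher and 19.1% lower. This comparison shares the VAV1 vehicle libraries with the first, so the opposite signs of the 2 comparisons are not independent, and the level in VAV1 cells with saracatinib is also set against the empty vector with vehicle. Against that control 9 genes passed, 3 higher and 6 lower, where 43.4% of tested genes passed in either direction, 22.4% higher and 21% lower.

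SOX10 reached 11.44, 11.41 and 11.45 with saracatinib, above every VAV1 vehicle library and below every empty-vector library. It rose by 0.63 ± 0.04 (1.55-fold, limma adjusted p = 1.07e-07) and remained different from the empty vector by -1.44 ± 0.04 (limma adjusted p = 1.95e-11). SOX9 lay at 8.16, 8.15 and 8.19, just below its VAV1 vehicle libraries. The difference of -0.34 ± 0.13 missed the threshold (limma adjusted p = 0.0514) and passed in 9 of 19 alternative settings, with adjusted p from 0.0103 to 0.158. Those settings include leaving out empty-vector library 1 (adjusted p = 0.0333), 2 (0.0413) or 3 (0.0378). SOX9 stayed above the empty vector by 3.77 ± 0.13 (13.7-fold, limma adjusted p = 7.44e-11), or by 3.07 with 16 added before the log. MITF lay at 9.003, 8.837 and 9.153 with saracatinib, a change of -1.09 ± 0.11 (2.13-fold, limma adjusted p = 5.88e-06), and was above the empty vector by 0.47 ± 0.11 (1.39-fold, limma adjusted p = 0.00387).

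The neural crest factors that fell with VAV1 differed in how much of the log2 difference from the empty vector was left with saracatinib. FOXD3 lay at 6.22, 6.34 and 6.49 with saracatinib, a rise of 1.54 ± 0.18 (2.9-fold, limma adjusted p = 1.88e-05). It was then -0.23 ± 0.18 from the empty vector (95% interval -0.62 to 0.16, limma adjusted p = 0.329), which leaves 12.9% of the VAV1 difference. The libraries of these groups did not overlap, though the highest with saracatinib (6.488) came close to the lowest with the empty vector (6.496). RXRG lay at 5.48, 5.05 and 4.80, between the other groups, a rise of 2.09 ± 0.28 (4.26-fold, limma adjusted p = 6.12e-05) that leaves 50.3%. With 16 added before the log this rise was 1.10. TFAP2B lay at 7.51, 7.44 and 7.52, a rise of 0.69 ± 0.12 (1.62-fold, limma adjusted p = 0.000615) that leaves 80.5%. LEF1, at 7.56 to 7.91, differed from VAV1 with vehicle by -0.26 ± 0.11 (limma adjusted p = 0.0875) and from the empty vector by -1.34 ± 0.11 (limma adjusted p = 6.31e-07). It was thus no nearer to the control. Its call against vehicle was made without saracatinib library 1 (-0.37, adjusted p = 0.0186) and with quantile normalization (adjusted p = 0.0421).

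NGFR, at 9.75, 9.91 and 9.89 with saracatinib, fell below its VAV1 vehicle libraries by 0.35 on the log2 scale (SE 0.07, 1.27-fold, limma adjusted p = 0.00197). PAX3 spread from 7.15 to 7.58 and TFAP2A from 7.49 to 7.69 with saracatinib, both overlapping VAV1 with vehicle, with differences of -0.13 ± 0.13 (95% interval -0.40 to 0.15, limma adjusted p = 0.461) and -0.14 ± 0.19 (-0.55 to 0.26, adjusted p = 0.585). Against the empty vector, PAX3 (-0.37 ± 0.13, limma adjusted p = 0.0318), TFAP2A (0.56 ± 0.19, adjusted p = 0.0270) and NGFR (-0.23 ± 0.07, adjusted p = 0.0197) passed by small margins. The PAX3 call was lost without empty-vector library 1, 2 or 3 (adjusted p = 0.0585, 0.0906 and 0.0538) or saracatinib library 1 or 3 (0.129 and 0.0828). The TFAP2A call was lost without empty-vector library 1 or 2 (0.103 and 0.107) or saracatinib library 1 or 3 (0.0767 and 0.0738), and the NGFR call without empty-vector library 1 or 3 (0.0727 and 0.0843) or saracatinib library 1 (0.0878).

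The shift from SOX10 to SOX9 was then set against MITF library by library. SOX9 minus SOX10 on the log2 scale was -8.37, -8.48 and -8.60 with the empty vector, -2.29, -2.38 and -2.22 with VAV1 and -3.28, -3.26 and -3.26 with saracatinib. Gene length cancels in differences between groups, so only those are compared. VAV1 moved this difference by 6.19 ± 0.08 (SE, n = 3 per group) and saracatinib moved it back by -0.97 ± 0.05. In untreated cells it was -10.09, -9.83 and -11.21 with the empty vector and -5.42, -5.30 and -5.26 with RAC1 P29S, a shift of 5.05 ± 0.42. In each of these comparisons the groups did not overlap, and the two-sided exact permutation test gave p = 0.1, the smallest that 3 against 3 libraries allow.

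MITF was then read beside that shift. With each library taken relative to the mean of its own empty-vector group, MITF stood at 1.53, 1.59 and 1.57 in VAV1 cells with vehicle, where the SOX9 minus SOX10 shift was 6.19, 6.10 and 6.26. With saracatinib the shift was still 5.20, 5.22 and 5.23, but MITF stood at 0.48, 0.31 and 0.63. With RAC1 P29S the shift was 4.96, 5.08 and 5.12, a little below that of the saracatinib libraries, while MITF stood at 1.44, 1.03 and 1.22. How near these shifts lie depends on the amount added before the log: with 16 in place of 1 the mean shift was 3.56 with RAC1 P29S and 4.51 with VAV1 and saracatinib. Of the log2 differences between VAV1 and empty-vector cells, 30.2% was left for MITF with saracatinib, beside 69.6% for SOX10 and 91.8% for SOX9. Whether MITF rose through its melanocyte promoter or another was not tested.

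**Figure D3:**
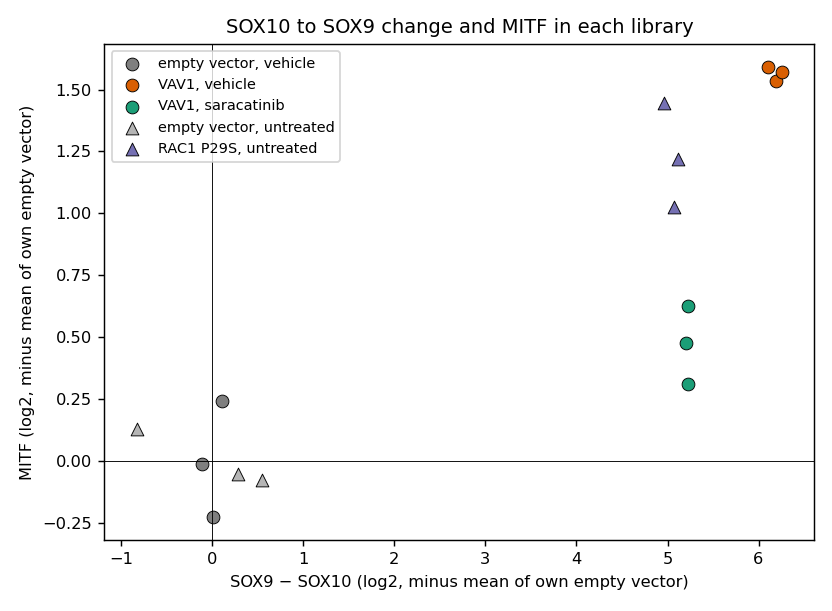
MITF (vertical axis) against SOX9 minus SOX10 (horizontal axis), both on the log2 scale and relative to the mean of the empty-vector libraries of the same experiment, for each of the 15 libraries. Circles are vehicle and saracatinib libraries, triangles untreated ones. The saracatinib and RAC1 P29S libraries have shifts of 4.96 to 5.23 and MITF values of 0.31 to 0.63 and 1.03 to 1.44. With 16 added before the log the mean shifts of these groups are 4.51 and 3.56.

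Related genes were counted in lists, whose shares are read beside those of all tested genes: 23.6% higher and 20.1% lower with VAV1, 15.6% and 15.5% with RAC1 P29S, and 18.3% and 19.1% with saracatinib. The lists were chosen with earlier results of these data known, so a share above that of all genes is descriptive and carries no test. Of 15 tested genes of pigment synthesis and melanosomes, 4 rose and 6 fell with VAV1 (median -0.15), 2 rose and 6 fell of 16 with RAC1 P29S (median -0.20), and 7 rose and 3 fell of 15 with saracatinib (median 0.26). The list holds 26 genes, and those that were not listed for the libraries or were too low, TYR and DCT among them, were not tested. The higher shares with the transgenes, 26.7% and 12.5%, were near those of all genes, and the lower shares were 40% and 37.5%. The melanosome transport adaptor MLPH rose by 1.81 ± 0.18 with VAV1 and 2.03 ± 0.16 with RAC1 P29S and changed by -0.67 ± 0.18 with saracatinib. The endothelin receptor EDNRB moved oppositely, by -1.90 ± 0.10, -1.59 ± 0.12 and 0.99 ± 0.10 in that order, and the melanosomal glycoprotein GPNMB rose by 0.26 ± 0.05 with VAV1 and 1.62 ± 0.05 with saracatinib. Of 16 other MITF targets, 7 rose and 3 fell with VAV1 (median 0.22), 5 rose and 2 fell with RAC1 P29S (0.16) and 6 rose and 4 fell with saracatinib (0.34). That is 43.8%, 31.2% and 37.5% higher, beside 23.6%, 15.6% and 18.3% of all genes. The receptor kinase MET rose by 1.28 ± 0.05 and 0.96 ± 0.08 with VAV1 and RAC1 P29S. It changed by -0.46 ± 0.05 with saracatinib. HIF1A changed in the same directions, by 0.68 ± 0.06, 0.45 ± 0.07 and -0.24 ± 0.06 in that order. CDKN1A rose with both transgenes and with saracatinib, by 0.74 ± 0.06, 0.84 ± 0.05 and 0.66 ± 0.06. SERPINF1 went against MET and changed by -2.23 ± 0.18 with VAV1 and 1.53 ± 0.18 with saracatinib. Its difference of -0.53 ± 0.20 with RAC1 P29S did not pass (limma adjusted p = 0.0697).

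Schwann and neural crest derivative genes had more members lower with both transgenes. Of 18 tested, 11 fell and 3 rose with VAV1 (median -1.63), 14 of 19 fell and 3 rose with RAC1 P29S (median -1.50), and 10 of 18 rose and 2 fell with saracatinib (median 0.67). The lower shares with VAV1 and RAC1 P29S were 61.1% and 73.7%, beside 20.1% and 15.5% of all genes. The neuregulin receptor ERBB3, a SOX10 target, changed by -2.59 ± 0.05 with VAV1, -1.61 ± 0.06 with RAC1 P29S and 0.78 ± 0.05 with saracatinib. The calcium-binding S100A1 changed by -3.07 ± 0.10, -2.54 ± 0.08 and 1.49 ± 0.10, while the intermediate filament gene NES changed by -1.70 ± 0.06, -1.49 ± 0.06 and -0.48 ± 0.06 and so went lower still with the inhibitor. Of 19 other neural crest specifiers, 4 rose and 9 fell with VAV1 (median -0.44) and 2 rose and 7 fell with RAC1 P29S (median -0.15). With saracatinib 3 rose and 6 fell (median 0.12). Their higher shares of 21.1%, 10.5% and 15.8% were near or under those of all genes, and their lower shares were 47.4%, 36.8% and 31.6%. The factor ETS1 rose by 1.26 ± 0.06 and 1.21 ± 0.06 with the transgenes and TFAP2C, another AP-2 factor, changed by -0.77 ± 0.06 and -0.30 ± 0.08.

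SOX9 was the only SOX gene called higher with either transgene among those tested here. Of 10 other SOX genes tested, 0 rose and 6 fell with VAV1 (median -1.11), 0 rose and 6 fell with RAC1 P29S (median -0.43), and 3 rose and 0 fell with saracatinib (median 0.18). The lower share was 60% with either transgene, beside 20.1% and 15.5% of all genes. SOX5 changed by -2.48 ± 0.08 with VAV1 and -1.24 ± 0.07 with RAC1 P29S, SOX11 by -1.72 ± 0.09 and -0.98 ± 0.10 and SOX8 by -4.33 ± 0.53 and -3.27 ± 0.57. SOX8 averaged log2 values of only 0.60 with VAV1 and 0.95 with RAC1 P29S, from 4.93 and 4.22 in the controls. The size of its changes therefore depends on the amount added before the log. Cartilage genes, which SOX9 activates in chondrocytes, were counted next. Of 13 tested, 1 rose and 9 fell with VAV1 (median -1.80), and of 14, 2 rose and 8 fell with RAC1 P29S (median -1.12). With saracatinib 4 of 13 rose and 2 fell (median 0.21). The lower shares with VAV1 and RAC1 P29S were 69.2% and 57.1%. The collagen gene COL9A3 changed by -2.18 ± 0.08 and -1.68 ± 0.09 with the transgenes, and the link protein HAPLN1 by -1.27 ± 0.12 and -2.62 ± 0.08. SOX5, SOX6 and SOX8 each stand in 3 of these lists. SOX2 and MIA, the latter at -2.16 ± 0.06 with VAV1, stand in 2, so the lists are not independent.

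**Figure D4:**
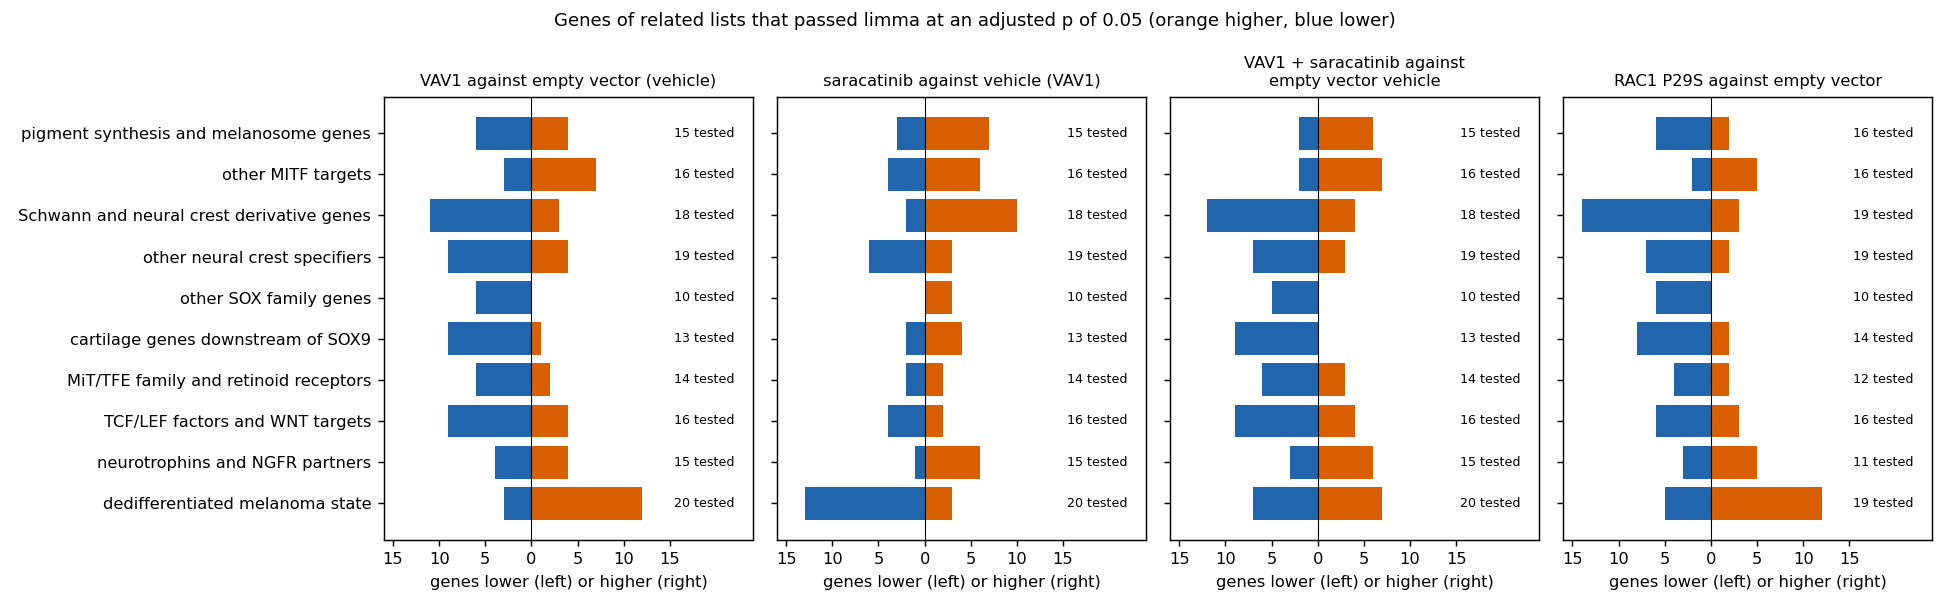
Number of genes in each of 10 related lists that were lower (blue, left of 0) or higher (orange, right of 0) at a limma adjusted p under 0.05 in 4 comparisons, with the number tested at the right of each bar. Of 18 Schwann and neural crest derivative genes 11 were lower with VAV1 and 10 were higher with saracatinib.

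Lists around the remaining factors were counted in the same way. Of 16 TCF and LEF factors and WNT targets, 4 rose and 9 fell with VAV1 (median -0.34), 3 rose and 6 fell with RAC1 P29S (-0.20) and 2 rose and 4 fell with saracatinib (-0.15). That is 25%, 18.8% and 12.5% higher and 56.2%, 37.5% and 25% lower, so the higher shares were near or under the 23.6%, 15.6% and 18.3% of all genes. TCF7L2, a relative of LEF1, changed by -0.87 ± 0.11 with VAV1 and -0.28 ± 0.09 with RAC1 P29S, and the secreted WNT antagonist DKK1 rose by 1.95 ± 0.06 and 1.70 ± 0.05. Of 14 retinoid and MiT family genes, 2 rose and 6 fell with VAV1 (median -0.19), 2 rose and 4 fell of 12 with RAC1 P29S (-0.15), and 2 rose and 2 fell with saracatinib (0.16). Their higher shares of 14.3%, 16.7% and 14.3% and their lower share of 14.3% with saracatinib were near or under those of all genes, while 42.9% and 33.3% were lower with VAV1 and RAC1 P29S. The retinoic acid receptor RARG changed by -0.63 ± 0.08 and -0.53 ± 0.06 with the transgenes and the retinal reductase DHRS3 by -1.38 ± 0.06 and -1.19 ± 0.07. Among neurotrophins and NGFR partners 4 of 15 rose and 4 fell with VAV1 (median -0.03), 5 of 11 rose and 3 fell with RAC1 P29S (0.28), and 6 of 15 rose and 1 fell with saracatinib (0.38). With VAV1 26.7% of this list was higher and 26.7% lower, near the 23.6% and 20.1% of all genes. The neurotrophin BDNF rose by 2.02 ± 0.14 and 2.20 ± 0.14 with the transgenes and the sortilin relative SORCS1 changed by -2.89 ± 0.14 and -2.80 ± 0.10.

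Of 20 tested genes of the dedifferentiated melanoma state, 12 rose and 3 fell with VAV1 (median 0.58), 12 of 19 rose and 5 fell with RAC1 P29S (median 0.83), and 3 of 20 rose and 13 fell with saracatinib (median -0.51). The higher shares with VAV1 and RAC1 P29S were 60% and 63.2%, beside 23.6% and 15.6% of all genes, and the lower share with saracatinib was 65%, beside 19.1%. The receptor EGFR rose by 1.86 ± 0.08 and 2.05 ± 0.13 with the transgenes and changed by -0.62 ± 0.08 with saracatinib, and the neuregulin gene NRG1 did so by 3.75 ± 0.16, 2.59 ± 0.18 and -0.98 ± 0.16. The matrix glycoprotein TNC changed by -2.72 ± 0.06, -1.44 ± 0.06 and 0.75 ± 0.06 and so moved with SOX10. Every gene named from these lists in the last 5 paragraphs passed limma in each comparison for which "rose" or "changed" is written.

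The genes whose pattern was most like that of each central factor were ranked by Pearson's r over the 15 libraries, relative to each experiment's empty-vector mean, among 2542 genes whose group means spanned at least 1 on the log2 scale. Libraries of 1 group share their condition, so these values describe likeness and carry no test. The closest to SOX10 were TNC (r = 0.998), SOX5 (0.995), the integrin gene ITGB3 (0.994) and GAS7 (0.993). The closest to SOX9 were the actin-binding MISP (0.993), DKK1 (0.987), the lipase MGLL (0.987) and AJAP1 (0.984). The closest to MITF were the caveolar coat gene CAV1 (0.978), STC2 (0.975), SCARA3 (0.974) and EVA1A (0.974). Picked for their likeness to MITF, its neighbours each stood well above control with VAV1 and with RAC1 P29S and lower with saracatinib. CAV1, for example, stood at 2.08, 1.87 and 0.66. Among the 10 factors themselves, the lowest r with MITF were those of RXRG (-0.957) and FOXD3 (-0.937), and the lowest with SOX9 was that of TFAP2B (-0.981). SOX10 had its highest r with TFAP2B (0.959).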

How the data were processed

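RNA from 15 A375 cultures was sequenced after an Illumina TruSeq preparation, per the labels' protocols. The authors deposited 1 log2 value per gene symbol and library, the log2 of a normalized count plus 1. The submitters' processing notes name kallisto, DESeq2 and GRCh38. Versions, settings, annotation release and strand use are not given in the sources used here. The 2 experiments list 16768 and 16295 symbols and were scaled separately, so tests compare groups within an experiment, or differences of such effects.

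A gene entered the test when 3 or more libraries reached a normalized count of 10. Testing used limma 3.58.1 (R 4.3.3) with 1 mean per group, empirical Bayes with trend and robust estimation, two-sided, Benjamini-Hochberg adjusted p under 0.05 over all tested genes. The 9 vehicle and saracatinib libraries shared 1 fit, the 6 untreated another, and the difference of effects used 15. The fit was tested on simulated data. Values after ± are SE for differences and SD for levels. The libraries are called biological triplicates without further detail, so p-values reflect only how these cultures vary. Residuals of libraries with the same replicate number correlated at -0.0547 to 0.0125, and the main fit used no pairing. These values show no pairing in the residuals but cannot tell whether cultures of the same number were handled together.

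The members and lists were chosen with earlier results of these data known. All 10 members are named. From each related list the rule allows up to 4 genes with the smallest adjusted p for VAV1, of which the text prints some, and for SOX10, SOX9 and MITF the 4 genes most alike in pattern. Alternatives were 3 scalings, 2 filters, 2 pseudocounts, fits of the 2 groups alone, without trend and robust estimation or with a replicate block, and leaving out each library.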

Additional observations from a re-analysis of the deposited data

Results flagged for a closer look

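The effects of VAV1 and RAC1 P29S, each against its own control, differed for 3 of the 10 genes by a test of the difference itself (limma over 15 libraries, adjusted over 13810 genes). For NGFR the VAV1 effect minus the RAC1 P29S effect was -1.86 on the log2 scale, for SOX10 -0.98 and for TFAP2B -0.56, with adjusted p of 9.04e-09, 2.20e-08 and 0.0141. All 3 passed in each of the 24 alternative settings run for this test, with adjusted p of at most 3.57e-06, 1.47e-05 and 0.0445.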

How the results depend on the processing

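Of 960 values of the 10 genes recomputed under 25 alternative settings, 922 kept their direction and their side of the threshold, 19 fell short of it, 12 newly passed it and 7 changed sign. These changes touched 9 of 50 results. With a replicate block, 8, 6, 9 and 9 members were called for VAV1, saracatinib, VAV1 with saracatinib and RAC1 P29S, and 3 for the difference of effects, as without it, so the block changed no count. SOX9 minus SOX10 moved by more than the spread between replicates with a larger pseudocount: to 6.002 (4 added) and 5.46 (16 added) for VAV1, 5.04 and 4.51 for VAV1 with saracatinib and 3.56 (16 added) for RAC1 P29S. For saracatinib it was -1.04 with quantile normalization. Leaving out 1 library at a time gave 6.13 to 6.24, 5.16 to 5.27, 4.64 to 5.32 and -1.01 to -0.93 for these 4. Sign changes were seen for the difference of effects alone: FOXD3 was at 0.058 with quantile normalization and RXRG at 0.064 with 16 added. Leaving out 1 library at a time gave FOXD3 values of -0.32 to 0.28 and SOX9 values of -0.13 to 0.61. Without trend and robust estimation TFAP2A lost its calls for RAC1 P29S (adjusted p = 0.0808) and for VAV1 with saracatinib (0.0646). Leaving out libraries gave 6 to 9 called members for VAV1 with saracatinib and 8 to 9 for RAC1 P29S. The cause of these changes was not tested. Read depth is not given, so no counting interval could be set on the low values of SOX9 and RXRG.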
